A study of Homo sapiens with 12 samples.

Results

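Amino acids enter and leave cells, and move between the cytosol and the lysosome, through membrane carriers that are grouped by sequence into solute carrier (SLC) families. The genes described here are the members of the families SLC1, SLC3, SLC6, SLC7, SLC36, SLC38, and SLC43. They were taken by a rule on their symbols in which no measured value entered. The families were, however, chosen with earlier results of these data known. Of the 23273 genes listed in each table, 59 had such a symbol. A member was taken as measured in a line where its mean FPKM (fragments per kilobase of a transcript and of mapped reads) reached 1 in any group of that line. By this minimum 26 members were measured in COLO858, 24 in MMACSF, 23 in both lines, and 32 in neither. COLO858 and MMACSF are BRAF-mutant melanoma cell lines grown in vitro, and the study compared their responses to the RAF inhibitor vemurafenib. RNA was sequenced in 12 libraries, with 2 replicates of each line for the vehicle DMSO, for 24 h in 0.2 μM vemurafenib, and for 48 h in it. DMSO libraries carry no time label, and the 24 h and 48 h libraries were therefore set against 1 DMSO pair per line. COLO858 was grown in RPMI medium and MMACSF in DMEM/F12, both with serum and pyruvate, so the amino acids supplied by the medium and the line cannot be told apart. The replicates were plates of 1 line each, so p-values measure the spread between these libraries, which may be technical.

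These carriers work in several ways. The heavy chain SLC3A2 brings light chains of the SLC7 family to the cell surface, where the pairs exchange one amino acid for another, as SLC7A5 does when it imports leucine. SLC1A5 and SLC1A4 exchange small neutral amino acids such as serine, and SLC1A5 also exchanges glutamine. The SLC38 and SLC6 carriers use the sodium gradient, and SLC7A1 lets arginine and lysine enter. Some members, among them SLC38A9, SLC38A7, and SLC36A1, sit on the lysosome, where the kinase complex mTORC1 reads amino acid supply. In melanoma and other tumors SLC7A5 and SLC1A5 are known for supplying leucine and glutamine to dividing cells.

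The libraries carried the labelled lineage. Of 10 melanocyte lineage markers 9 reached 1 FPKM in at least 1 library of COLO858 and 10 in at least 1 of MMACSF. Their summed level ranged from 1015 to 4673 FPKM and from 11290 to 17749 FPKM. MLANA stayed at 0.299 to 0.725 FPKM in COLO858, against 962 to 2312 FPKM in MMACSF. TYR reached 1 FPKM in COLO858 at 24 h only (1.21 and 1.15 FPKM). DCT rose past the threshold in both lines at both drug times, and PMEL, S100B, and TYRP1 rose in COLO858 at both times. In MMACSF every drug library also lay above both DMSO libraries for MLANA, TYR, PMEL, and TYRP1. Some values of this list went the other way. All libraries lay below DMSO for RAB27A (3.03 and 4.07 to 1.28 and 2.30 FPKM) and TYR in COLO858 at 48 h. The same held for S100B in MMACSF at both times, and MITF in COLO858 at 48 h overlapped DMSO. The part of these changes in the transporter results was not tested. Of 5 keratinocyte markers and 5 leukocyte markers 1 each reached 1 FPKM in each line, with sums of 6.56 to 10.5 FPKM and 0.447 to 4.44 FPKM, and of 4 endothelial markers 0 did. As a check of the drug, 8 of 11 tested immediate targets of ERK signaling were lower than in DMSO-treated cells in each of the 4 comparisons. In bulk RNA, fewer cells of a type and less RNA per cell cannot be told apart. The small RNA gene MIR4461 took 14.1% to 43.4% of the summed FPKM of a library, with a higher share in replicate 2 of every group.

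A handful of carriers made up most of the transporter mRNA. Levels of different genes can be set side by side here because FPKM is per length. The 4 highest members held 59.4% to 74.4% of the summed FPKM of all 59 members in a library. The heavy chain SLC3A2 and the leucine carrier SLC7A5 were among the highest 4 in every library. SLC1A5 and SLC43A3 joined them in DMSO-treated COLO858 replicate 1, and SLC43A3 and SLC1A4 in DMSO-treated MMACSF. The summed level of the family members in COLO858 was 897 and 828 FPKM under DMSO, 853 and 784 FPKM at 24 h, and 545 and 515 FPKM at 48 h. In MMACSF the sum was 1115 and 1086 FPKM under DMSO, 819.8 and 819.0 FPKM at 24 h, and 853 and 855 FPKM at 48 h. In COLO858 the 24 h libraries overlapped the DMSO libraries and the 48 h libraries lay below them, whereas in MMACSF the libraries of both times lay below.

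**Figure D1:**
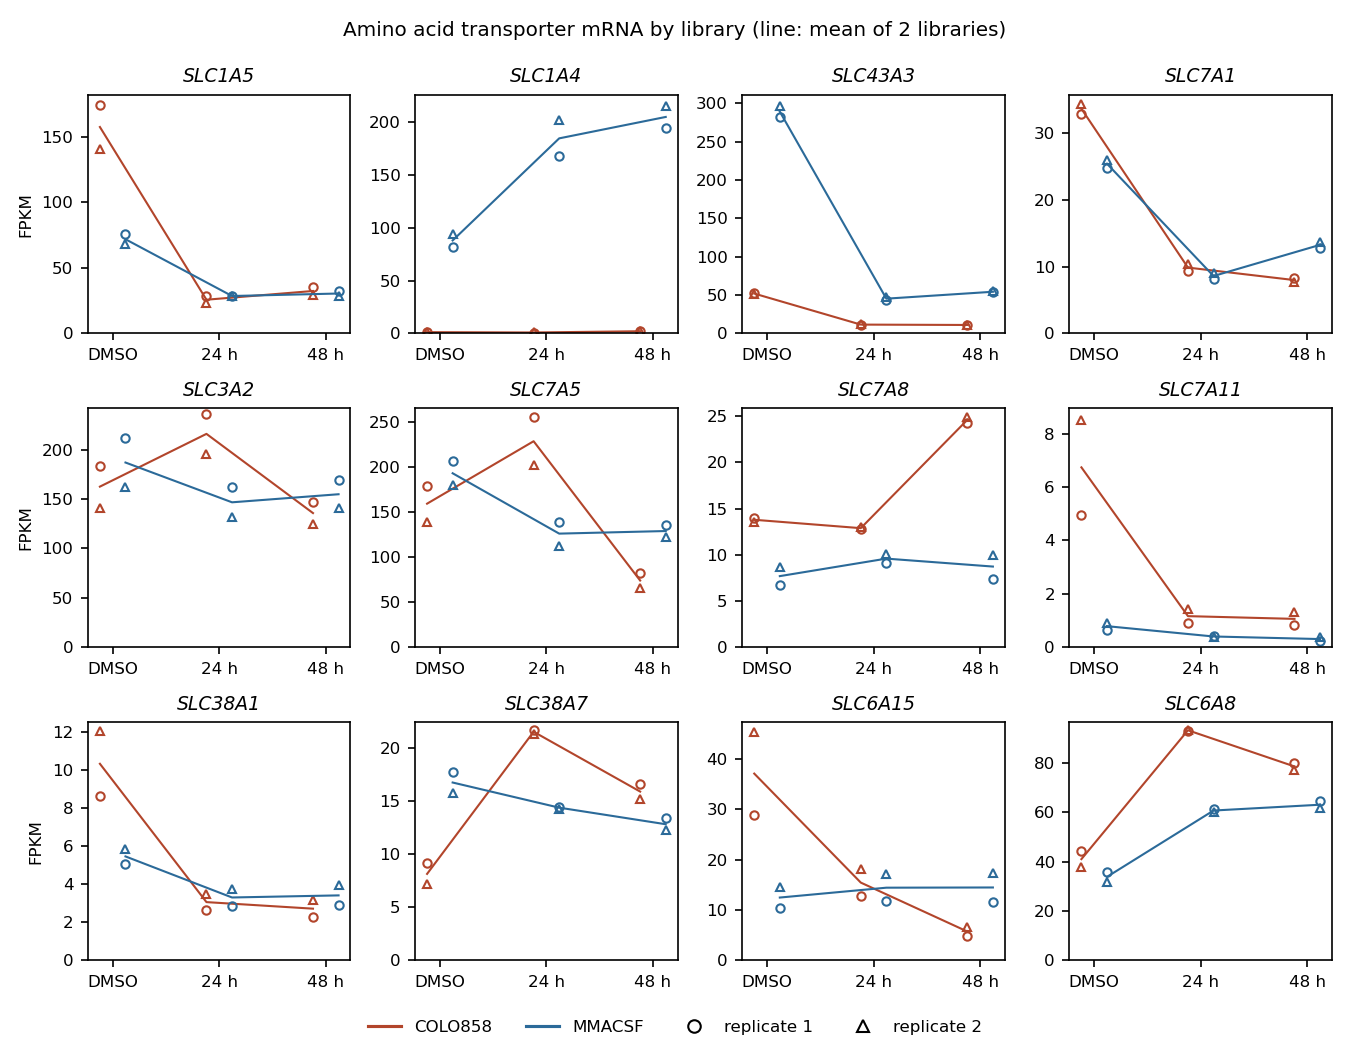
FPKM (vertical axes, linear from 0) of 12 transporters in every library of COLO858 (red) and MMACSF (blue), with circles for replicate 1, triangles for replicate 2, and lines through the means of 2 libraries. SLC1A5, SLC43A3, and SLC7A1 are lower in every drug library than in the DMSO libraries of the same line and SLC6A8 is higher, whereas SLC1A4 stays near the axis in COLO858 and reaches 215 FPKM in MMACSF.

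Each line was fitted over all its genes, and a member counted as changed at an adjusted p under 0.01 (limma on log2(FPKM + 1), Benjamini-Hochberg over all genes tested). In COLO858 at 24 h 5 of 26 members (19.2%) passed, against 9.82% of all 12696 genes tested, with 2 higher (4.11% of all genes) and 3 lower (5.71%). At 48 h 8 of 26 (30.8%) passed, against 9.47% of all genes, with 1 higher (4.74%) and 7 lower (4.73%). In MMACSF 5 of 24 members (20.8%) passed at each time, 2 higher and 3 lower. Among its 12599 genes 5.83% passed at 24 h (2.22% higher and 3.6% lower) and 8.83% at 48 h (3.42% higher and 5.41% lower). The median log2 fold-change (hereafter log2 change, against DMSO unless stated) over the members measured was -0.04 at 24 h and -0.40 at 48 h in COLO858, beside 0.06 and -0.01 over all genes. For MMACSF it was -0.16 and -0.15, beside 0.07 and 0.06. The libraries of the drug and DMSO groups did not overlap for 21 of 26 members at 24 h and 20 of 26 at 48 h in COLO858, where 63.1% and 61.3% of all genes did not overlap. In MMACSF this held for 17 and 13 of 24 members, against 59.8% and 64.5% of all genes. Replicates of a group differed by a median of 0.16 to 0.30 on the log2(FPKM + 1) scale over the members, and by at most 0.79, for SLC38A6 in MMACSF at 24 h. Leaving out any single library of a comparison left 1 group with a single library. Most of these calls were then lost, as were most over all genes, and no called estimate changed direction.

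**Figure D2:**
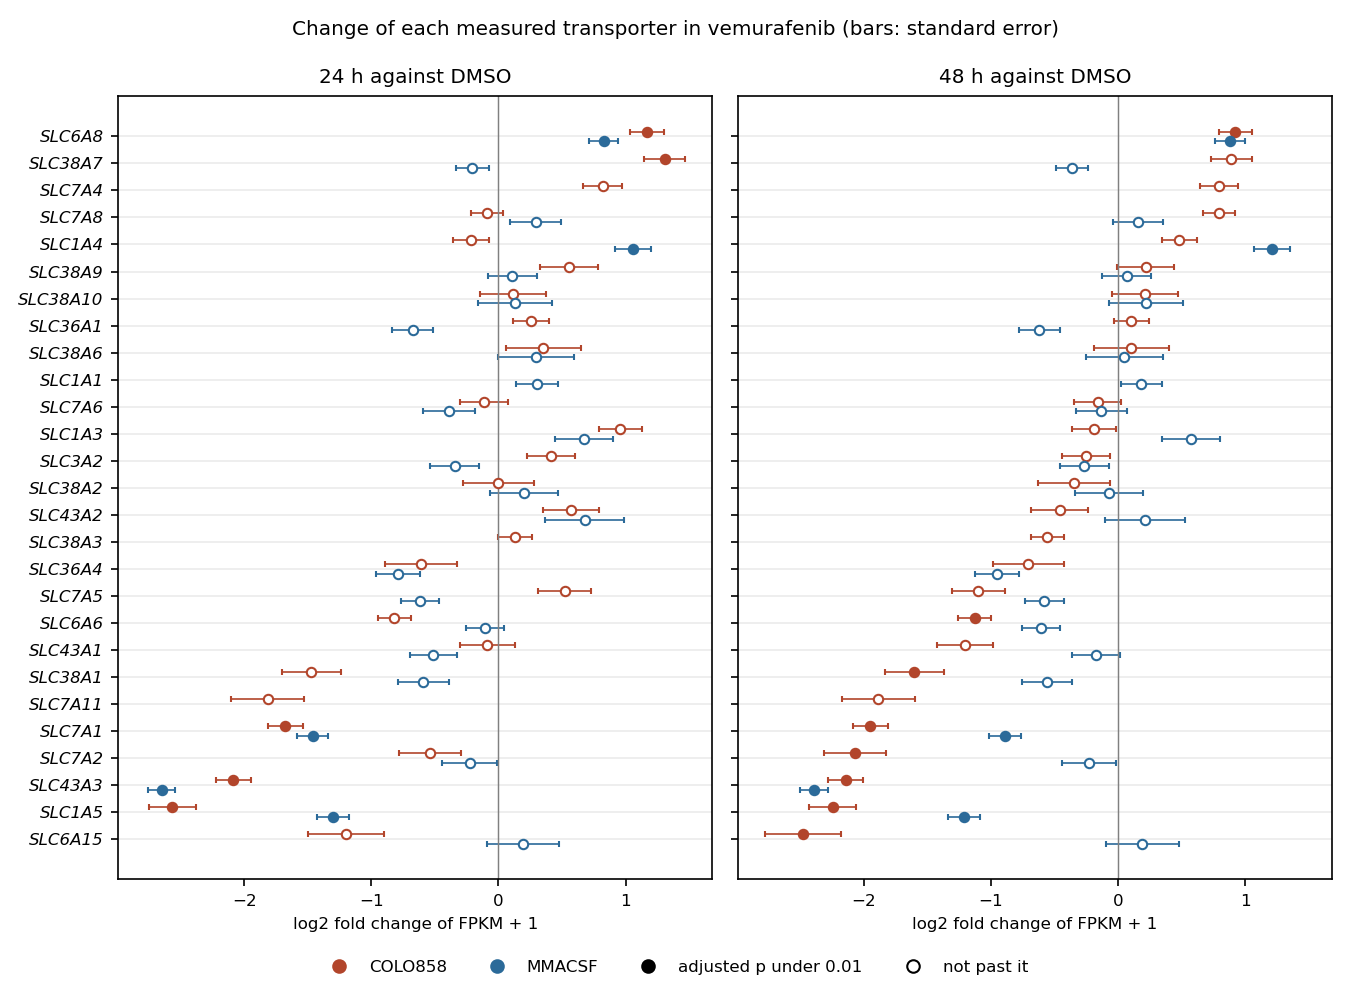
Log2 fold-change of FPKM + 1 against DMSO (horizontal axes) of the 27 transporters measured in either line, at 24 h (left) and 48 h (right), with COLO858 in red, MMACSF in blue, bars for the standard error, and filled points for an adjusted p under 0.01. Near the lower end SLC7A1, SLC43A3, and SLC1A5 have filled points left of 0 in both lines at both times, and SLC6A8 at the upper end has filled points right of 0.

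In all, 4 members passed the threshold at both times in both lines. SLC1A5, SLC43A3, and SLC7A1 were lower and SLC6A8 was higher in vemurafenib-treated cells. The 2 times share their DMSO libraries, so they are not independent of each other within a line. For 3 of the 4 the RefSeq promoter table (GRCh38.p14) held the 250 bases before a start, which are shown because these genes moved the same way in both lines. Capitals mark matches to an E-box (CACGTG), an AP-1 site (TGANTCA), or a CCAAT/enhancer-binding protein and ATF response element (CARE, TGATGNAA), searched on both strands. SLC1A5 had 3 listed starts, and the windows of 2 of them, chr19:46787294-46787543 and chr19:46784815-46785064 on the minus strand, held a match. The window of the third, chr19:46788595-46788844, is the furthest upstream of the 3. It held none of these letters and is not printed. The windows of SLC7A1 (chr13:29595689-29595938, minus strand) and SLC6A8 (chrX:153687676-153687925, plus strand) held none of these letters.
SLC1A5, start with an E-box: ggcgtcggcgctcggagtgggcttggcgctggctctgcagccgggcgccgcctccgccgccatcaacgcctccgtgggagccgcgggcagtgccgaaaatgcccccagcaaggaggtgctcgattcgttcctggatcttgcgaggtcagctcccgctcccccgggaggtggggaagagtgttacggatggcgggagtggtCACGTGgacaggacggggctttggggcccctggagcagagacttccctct
SLC1A5, start with a CARE: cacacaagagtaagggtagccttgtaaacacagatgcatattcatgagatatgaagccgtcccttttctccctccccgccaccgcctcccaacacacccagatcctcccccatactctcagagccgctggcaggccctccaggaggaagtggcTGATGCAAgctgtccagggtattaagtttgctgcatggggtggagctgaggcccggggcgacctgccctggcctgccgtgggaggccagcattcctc
SLC7A1: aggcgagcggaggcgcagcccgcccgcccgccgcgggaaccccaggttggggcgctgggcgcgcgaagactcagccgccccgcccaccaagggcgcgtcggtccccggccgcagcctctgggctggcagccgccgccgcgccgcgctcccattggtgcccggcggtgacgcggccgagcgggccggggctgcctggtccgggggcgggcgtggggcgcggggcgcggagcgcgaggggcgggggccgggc
SLC6A8: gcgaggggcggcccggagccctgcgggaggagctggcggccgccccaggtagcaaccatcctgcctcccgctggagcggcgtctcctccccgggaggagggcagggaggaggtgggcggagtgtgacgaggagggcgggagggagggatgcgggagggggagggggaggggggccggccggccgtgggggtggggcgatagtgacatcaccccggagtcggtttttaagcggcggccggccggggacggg
Among the 27 measured members 20 had an entry, with 39 windows, and no entry was found for SLC38A3, SLC43A3, SLC6A15, SLC6A6, SLC7A11, SLC7A2, and SLC7A4. An E-box was in 5 of the 39 windows (12.8%) and in 6.34% of all 35116 windows of the same length. AP-1 letters were in 7 (17.9%), beside 6.57% of all windows, and CARE letters in 2 (5.13%), beside 3.14%. These are matches of letters, not sites of binding.

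SLC1A5 (ASCT2, chr19:47278140-47291851 on the minus strand of GRCh37) exchanges glutamine for other neutral amino acids across the plasma membrane. In COLO858 it stood at 174 and 141 FPKM under DMSO, 28.2 and 23.2 FPKM at 24 h, and 35.2 and 29.5 FPKM at 48 h. All drug libraries lay far below both DMSO libraries. It fell by 2.57 ± 0.18 (SE) on the log2 scale at 24 h, with an adjusted p of 0.00139, and by 2.24 ± 0.18 at 48 h, with an adjusted p of 0.00196. In mean FPKM this was 6.12-fold and 4.87-fold lower. MMACSF held 75.8 and 67.9 FPKM under DMSO, 28.4 and 28.7 FPKM at 24 h, and 32.3 and 28.5 FPKM at 48 h. The log2 change there was -1.30 ± 0.12 (adjusted p = 0.00378) and -1.21 ± 0.12 (adjusted p = 0.00354). Both lines therefore ended at about the same listed level in drug, between 23.2 and 35.2 FPKM, although whether their tables were scaled together is not stated.

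SLC43A3 (chr11:57174427-57195053, minus strand of GRCh37) belongs to a family of facilitated amino acid carriers but is known as a carrier of purine nucleobases. It was the highest of the 59 members in DMSO-treated MMACSF, at 282 and 296 FPKM, and had 43.5 and 47.1 FPKM at 24 h and 53.4 and 55.2 FPKM at 48 h. Its log2 change was -2.65 ± 0.11 at 24 h (adjusted p = 0.000503) and -2.39 ± 0.11 at 48 h (adjusted p = 0.000418), or 6.38-fold and 5.32-fold lower in mean FPKM. In COLO858 it was lower to begin with, at 52.3 and 51.6 FPKM, and stood at 10.7 and 12.3 FPKM at 24 h and 10.6 and 11.4 FPKM at 48 h. Its log2 change in that line was -2.09 ± 0.14 (adjusted p = 0.00115) and -2.14 ± 0.14 (adjusted p = 0.00114). No drug library of either line overlapped its DMSO libraries. At 24 h the lines differed by 0.56 ± 0.14 with an adjusted p of 0.0467, which did not pass the threshold.

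SLC7A1 (chr13:30083551-30169825, minus strand of GRCh37) is the widely used importer of arginine and lysine. COLO858 had 32.9 and 34.3 FPKM under DMSO, 9.29 and 10.4 FPKM at 24 h, and 8.33 and 7.62 FPKM at 48 h. MMACSF had 24.8 and 26.0 FPKM under DMSO, 8.16 and 9.01 FPKM at 24 h, and 12.8 and 13.7 FPKM at 48 h. At 24 h the log2 change was -1.68 ± 0.14 in COLO858 (adjusted p = 0.00193) and -1.46 ± 0.12 in MMACSF (adjusted p = 0.00266), and the difference of -0.21 ± 0.15 between the lines did not pass (adjusted p = 0.504). At 48 h the log2 change was -1.95 ± 0.14 in COLO858 (adjusted p = 0.00132) and -0.89 ± 0.12 in MMACSF (adjusted p = 0.00803). That difference, -1.06 ± 0.15, passed with an adjusted p of 0.00253. In MMACSF both 48 h libraries lay above both 24 h libraries, but the change of 0.57 ± 0.12 between the times did not pass (adjusted p = 0.286).

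SLC6A8 (chrX:152953381-152962043, plus strand of GRCh37) carries creatine, an energy buffer made from amino acids, into cells. Its level rose from 44.2 and 37.9 FPKM to 93.0 and 93.5 FPKM at 24 h and 80.1 and 77.1 FPKM at 48 h in COLO858. The corresponding values in MMACSF were 35.98 and 31.7 FPKM under DMSO, 61.4 and 59.99 FPKM at 24 h, and 64.6 and 61.6 FPKM at 48 h. Drug and DMSO libraries did not overlap in either line. The log2 change was 1.17 ± 0.13 and 0.92 ± 0.13 in COLO858 (adjusted p = 0.00411 and 0.00826) and 0.83 ± 0.12 and 0.88 ± 0.12 in MMACSF (adjusted p = 0.00992 and 0.00677). The last 3 of these p-values lie just under 0.01 and did not hold under every setting. The pseudogene SLC6A10P is a near-identical copy, so reads may be split between the genes. SLC6A10P itself had log2 changes of 1.33 and 0.99 in COLO858 and 0.81 and 0.77 in MMACSF, with adjusted p-values of 0.0118, 0.0275, 0.0182, and 0.0174.

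The neutral exchangers SLC1A5 and SLC1A4 changed in opposite directions in MMACSF. SLC1A4 (ASCT1, chr2:65215611-65250999, plus strand of GRCh37) exchanges serine, alanine, and cysteine but not glutamine. In MMACSF it had 82.0 and 93.9 FPKM under DMSO, 168 and 202 FPKM at 24 h, and 195 and 215 FPKM at 48 h. It rose by 1.06 ± 0.14 on the log2 scale at 24 h (adjusted p = 0.00923) and by 1.21 ± 0.14 at 48 h (adjusted p = 0.00523), and in drug it was the highest of the 59 members. The call at 24 h was lost in a fit without a mean-variance trend (adjusted p = 0.0126). In COLO858 SLC1A4 was almost absent, at 1.31 and 1.07 FPKM under DMSO, 0.823 and 0.949 FPKM at 24 h, and 2.14 and 1.98 FPKM at 48 h. The log2 change there was -0.22 ± 0.14 (adjusted p = 0.305) and 0.48 ± 0.14 (adjusted p = 0.0591), values that the added constant of 1 FPKM makes small for so low a gene. The difference between the lines passed at 24 h (-1.27 ± 0.19, adjusted p = 0.005) and did not at 48 h (-0.73 ± 0.19, adjusted p = 0.0332).

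The ratio of this pair was lower in drug than under DMSO in both lines, though through different changes. In COLO858 the ratio of SLC1A5 to SLC1A4 FPKM was 133 and 131 under DMSO, 34.2 and 24.5 at 24 h, and 16.4 and 14.9 at 48 h. There SLC1A4 was near the floor, at 0.823 to 2.14 FPKM, and its 24 h libraries lay below its DMSO libraries. In MMACSF it was 0.925 and 0.723 under DMSO, 0.170 and 0.142 at 24 h, and 0.166 and 0.133 at 48 h. Their summed level was 159 ± 24.0 FPKM (SD, n = 2) in DMSO-treated COLO858, 26.6 ± 3.42 FPKM at 24 h, and 34.4 ± 4.11 FPKM at 48 h. For MMACSF the sum was 159.8 ± 2.88 FPKM under DMSO, 213 ± 24.2 FPKM at 24 h, and 235 ± 11.5 FPKM at 48 h. Summed exchanger mRNA was thus lower in drug in COLO858 and higher in drug in MMACSF in every library. These ratios and sums were not tested.

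The heterodimeric carriers of leucine, other large neutral amino acids, and cystine consist of the heavy chain SLC3A2 and 1 light chain of the SLC7 family. Of the 8 light chain genes 4 were measured in COLO858 and 3 in MMACSF, and 0 passed the threshold against DMSO in either line at either time. This fit has no term for the replicate number. With a replicate block more members passed, as did more of all genes (see the last section). SLC3A2 (4F2hc, chr11:62623476-62656352, plus strand of GRCh37) had 184 and 142 FPKM in DMSO-treated COLO858, 237 and 196 FPKM at 24 h, and 147 and 125 FPKM at 48 h. Its log2 change was 0.41 ± 0.19 (adjusted p = 0.167) and -0.25 ± 0.19 (adjusted p = 0.383). In MMACSF it had 212 and 163 FPKM, 162 and 132 FPKM, and 169 and 141 FPKM, with log2 changes of -0.34 ± 0.19 (adjusted p = 0.259) and -0.26 ± 0.19 (adjusted p = 0.359). Both 24 h libraries of SLC3A2 lay above the DMSO and 48 h libraries in COLO858 and below the DMSO libraries in MMACSF. From 24 to 48 h in COLO858 the log2 change was -0.67 ± 0.19 and did not pass (adjusted p = 0.127).

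SLC7A5 (LAT1, chr16:87863629-87903113, minus strand of GRCh37) is the main leucine importer of proliferating cells. In COLO858 it had 179 and 139 FPKM under DMSO, 255 and 201 FPKM at 24 h, and 82.0 and 65.3 FPKM at 48 h. Both 24 h libraries were above and both 48 h libraries below the DMSO pair. The log2 change against DMSO was 0.52 ± 0.21 at 24 h (adjusted p = 0.129) and -1.10 ± 0.21 at 48 h (adjusted p = 0.0189), and that of 48 h against 24 h was -1.62 ± 0.21 (adjusted p = 0.0178). MMACSF had 206 and 179 FPKM, 139 and 112 FPKM, and 135 and 122 FPKM. There the log2 change was -0.62 ± 0.15 at 24 h (adjusted p = 0.0434), -0.58 ± 0.15 at 48 h (adjusted p = 0.0461), and 0.04 ± 0.15 between the drug times. None of these passed within a line in this fit, which has no term for the replicate number. In COLO858 the deviations of libraries of 1 replicate number went together over the members (r of 0.816 to 0.927), a spread that these SE include. The lines differed in the course from 24 to 48 h by -1.66 ± 0.27, with an adjusted p of 0.00886. With the libraries rescaled it was 0.0312, which did not pass. Without a replicate block SLC7A5 was the 1 member of 27 to pass in that comparison, in which 2.96% of all 13595 genes passed (0.508% more negative in COLO858 and 2.46% more positive). With the block it passed as well, when 13% of all genes did. SLC7A5 has the pseudogene copies SLC7A5P1 and SLC7A5P2, so its reads may also be split.

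The windows before the SLC7A5 start and a start of SLC3A2 are shown because their products work as a pair and their mRNA levels went apart in COLO858 at 48 h. The SLC7A5 window (chr16:87869508-87869757, minus strand of GRCh38.p14) held an E-box and that of SLC3A2 (chr11:62881449-62881698, plus strand) an AP-1 match, in capitals. The windows of the other 2 listed SLC3A2 starts held none of the 3 motifs.
SLC7A5: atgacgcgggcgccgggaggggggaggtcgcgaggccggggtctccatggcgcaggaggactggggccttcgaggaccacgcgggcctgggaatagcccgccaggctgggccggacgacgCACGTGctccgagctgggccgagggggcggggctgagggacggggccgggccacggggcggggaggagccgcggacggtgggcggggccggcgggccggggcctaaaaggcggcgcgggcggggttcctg
SLC3A2: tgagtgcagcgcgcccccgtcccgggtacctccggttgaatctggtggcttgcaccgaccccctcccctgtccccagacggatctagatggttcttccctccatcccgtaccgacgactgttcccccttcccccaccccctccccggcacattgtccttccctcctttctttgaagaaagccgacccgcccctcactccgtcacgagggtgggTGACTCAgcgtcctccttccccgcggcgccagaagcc
The ratio of SLC7A5 to SLC3A2 FPKM in COLO858 was 0.972 and 0.983 under DMSO, 1.08 and 1.03 at 24 h, and 0.559 and 0.522 at 48 h. In MMACSF it was 0.972 and 1.10, then 0.859 and 0.853, then 0.798 and 0.867. The replicates of this ratio were close in COLO858 even where SLC7A5 and SLC3A2 themselves differed between replicates.

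The remaining light chains took different shares of the pool. SLC7A8 (LAT2), which exchanges neutral amino acids of many sizes, had 14.0 and 13.6 FPKM in DMSO-treated COLO858, 12.8 and 13.0 FPKM at 24 h, and 24.3 and 24.9 FPKM at 48 h. Its change at 48 h, 0.79 ± 0.12, came with an adjusted p of 0.0107 and did not pass. Its level in MMACSF was 6.73 to 10.1 FPKM over the 6 libraries, with log2 changes of 0.29 and 0.16. SLC7A6, which exchanges cationic for neutral amino acids, had 10.3 to 14.1 FPKM in COLO858 and 10.6 to 18.2 FPKM in MMACSF, with log2 changes from -0.39 to -0.11 over the 4 comparisons. SLC7A6 shares 3372 exon bases with SLC7A6OS on the opposite strand, and the strand setting of the counting is not given in the sources used here.

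SLC7A11 (xCT) exchanges glutamate for cystine, the source of cysteine for glutathione. COLO858 had 4.94 and 8.53 FPKM under DMSO, 0.893 and 1.42 FPKM at 24 h, and 0.807 and 1.30 FPKM at 48 h. Its drug libraries did not overlap the DMSO libraries, with means 5.83-fold and 6.41-fold lower. The log2 changes of -1.82 ± 0.29 and -1.89 ± 0.29 had adjusted p-values of 0.0111 and 0.0102, just outside the threshold. In MMACSF the gene stayed below 1 FPKM in every library, from 0.223 to 0.909 FPKM, and was not tested there.

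As shares of the summed FPKM of the 8 light chain genes, SLC7A5 held 85.3% and 79.1% in DMSO-treated COLO858, 91.1% and 87.9% at 24 h, and 69.6% and 62.7% at 48 h. SLC7A8 held 6.67% and 7.73%, then 4.57% and 5.65%, then 20.6% and 23.9%. SLC7A11 held 2.36% and 4.85% under DMSO and a mean of 0.468% and 0.964% in drug. In MMACSF the mean share of SLC7A5 was 88.3% ± 2.69 under DMSO, 84.4% ± 3.62 at 24 h, and 83.9% ± 3.03 at 48 h (SD, n = 2). The light chain pool of COLO858 at 48 h thus had the lowest share of SLC7A5 among the 12 libraries. These shares are mRNA per length and were not tested.

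**Figure D3:**
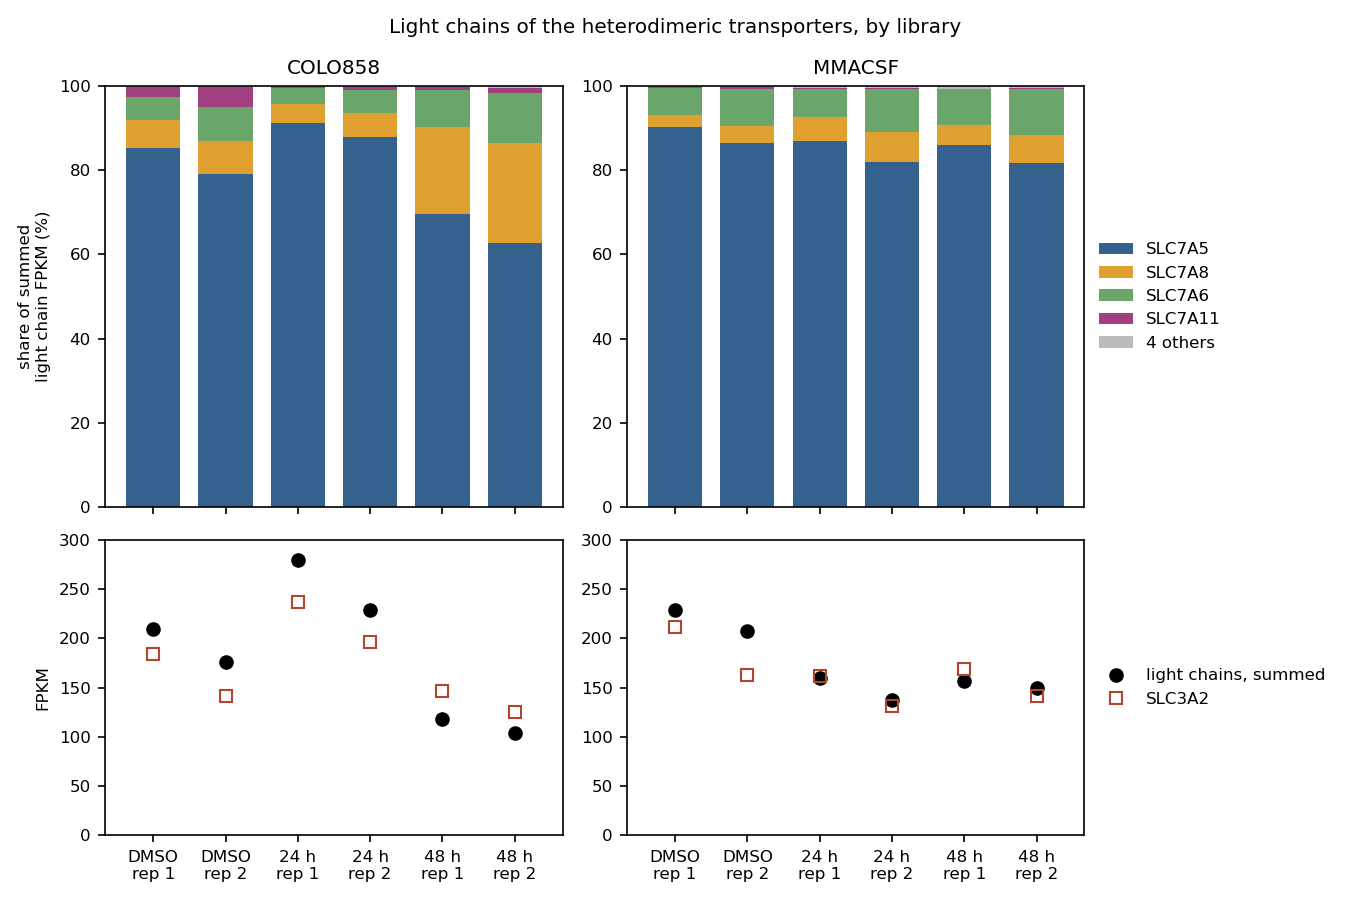
Top, share (%) of each light chain in the summed light chain FPKM of every library. Bottom, summed light chain FPKM (filled circles) and SLC3A2 FPKM (open squares). The share of SLC7A8 reaches 20.6% and 23.9% in COLO858 at 48 h, where the summed light chains lie below SLC3A2 in both libraries.

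Of the 5 cationic amino acid transporters 3 were measured in COLO858 and 2 in MMACSF. Beside SLC7A1, described above, SLC7A2 imports arginine and lysine with several splice forms. COLO858 had 21.9 and 31.6 FPKM of SLC7A2 under DMSO, 15.9 and 19.9 FPKM at 24 h, and 4.85 and 6.27 FPKM at 48 h. At 48 h it fell by 2.07 ± 0.24 on the log2 scale (adjusted p = 0.00508), whereas the value at 24 h was -0.54 ± 0.24 (adjusted p = 0.161). MMACSF had 3.39 to 5.46 FPKM in all its libraries and log2 changes of -0.23 at both times. At 48 h the lines differed by -1.84 ± 0.33 (adjusted p = 0.00767), a call lost with 0.1 FPKM added in place of 1 (adjusted p = 0.0107). SLC7A4 passed the minimum in COLO858 through the drug groups only, with a mean of 0.254 FPKM under DMSO and 1.22 FPKM at 24 h, just inside the minimum. SLC38A3, with a highest group mean of 1.45 FPKM, was the next above it, and SLC6A17 at 0.943 FPKM and SLC1A1 at 0.922 FPKM were the nearest below. In MMACSF the nearest were SLC6A6 at 3.92 FPKM inside and SLC6A20 at 0.855 FPKM and SLC7A11 at 0.778 FPKM outside.

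Of the 11 members of the SLC38 family 7 were measured in COLO858 and 6 in MMACSF. SLC38A2 (SNAT2), a sodium-coupled importer of small neutral amino acids that starved cells are known to raise, was the highest of them. It had 46.6 and 70.4 FPKM under DMSO, 49.6 and 65.9 FPKM at 24 h, and 38.4 and 52.4 FPKM at 48 h in COLO858, and 49.2 to 82.4 FPKM over the 6 libraries of MMACSF. Drug and DMSO libraries of SLC38A2 overlapped in all 4 comparisons, with log2 changes from -0.35 to 0.20. SLC38A1 (SNAT1, chr12:46576846-46663800, minus strand of GRCh37), which imports glutamine, had 8.63 and 12.05 FPKM in DMSO-treated COLO858, 2.65 and 3.48 FPKM at 24 h, and 2.27 and 3.17 FPKM at 48 h. It fell by 1.60 ± 0.23 at 48 h (adjusted p = 0.00911), while the value of -1.47 ± 0.23 at 24 h missed the threshold (adjusted p = 0.0111). In MMACSF its log2 change was -0.59 ± 0.20 and -0.56 ± 0.20 (adjusted p = 0.0955 and 0.0997), and the difference between the lines did not pass at either time (adjusted p = 0.14 and 0.0576).

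SLC38A7 (chr16:58699013-58718674, minus strand of GRCh37) is known to let glutamine and asparagine leave the lysosome. It rose in COLO858 from 9.15 and 7.15 FPKM under DMSO to 21.7 and 21.4 FPKM at 24 h, a log2 change of 1.31 ± 0.16 (adjusted p = 0.00546). With the libraries rescaled that change was 1.25 and just missed the threshold (adjusted p = 0.01003). At 48 h it had 16.6 and 15.2 FPKM, with a log2 change of 0.89 ± 0.16 that did not pass (adjusted p = 0.0162). In MMACSF it stood at 17.7 and 15.8 FPKM under DMSO, 14.5 and 14.3 FPKM at 24 h, and 13.4 and 12.3 FPKM at 48 h, with log2 changes of -0.20 ± 0.13 and -0.36 ± 0.13 (adjusted p = 0.306 and 0.0985). All COLO858 drug libraries were above and all MMACSF drug libraries below their DMSO libraries. The difference between the lines passed at both times, at 1.51 ± 0.18 (adjusted p = 0.00217) and 1.25 ± 0.18 (adjusted p = 0.00281). SLC38A9, the lysosomal arginine sensor of the mTORC1 pathway, had 3.55 to 7.12 FPKM in COLO858 and 3.88 to 5.23 FPKM in MMACSF, with log2 changes from 0.07 to 0.55 and 0 of 4 past the threshold. The other members of the family did not pass either, with log2 changes against DMSO of 0.05 to 0.35 for SLC38A10 and SLC38A6 in both lines and of 0.13 and -0.56 for SLC38A3 in COLO858.

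SLC36A1, which releases small amino acids from the lysosome, and SLC36A4 belong to a family named for proton-coupled transport. They were the 2 of its 4 members that were measured. SLC36A1 had 3.83 and 4.25 FPKM under DMSO in COLO858, 4.73 and 5.30 FPKM at 24 h, and 4.43 and 4.41 FPKM at 48 h. In MMACSF it had 5.36 and 6.52 FPKM, 3.10 and 3.59 FPKM, and 3.34 and 3.67 FPKM, with log2 changes of -0.67 ± 0.16 and -0.62 ± 0.16 (adjusted p = 0.0405 and 0.0447). SLC36A4 in MMACSF had 6.39 and 8.43 FPKM under DMSO, 3.90 and 3.76 FPKM at 24 h, and 3.10 and 3.54 FPKM at 48 h, with log2 changes of -0.79 ± 0.17 and -0.95 ± 0.17 (adjusted p = 0.0323 and 0.0162). In COLO858 SLC36A4 reached the minimum through the DMSO libraries only, at 1.51 and 2.06 FPKM, and had 0.450 to 1.28 FPKM in drug. None of these changes passed the threshold.

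The facilitated carriers SLC43A1 and SLC43A2 export and import leucine and other large neutral amino acids without an ion gradient. SLC43A1 (LAT3) had 8.06 and 5.80 FPKM in DMSO-treated COLO858, 6.92 and 5.89 FPKM at 24 h, and 2.84 and 2.02 FPKM at 48 h. Its 48 h libraries lay below all other libraries of the line, but the log2 change of -1.20 ± 0.22 did not pass (adjusted p = 0.0162). MMACSF had 11.7 and 9.38 FPKM, 7.04 and 7.02 FPKM, and 10.6 and 7.96 FPKM, with log2 changes of -0.51 ± 0.19 and -0.17 ± 0.19. SLC43A2 (LAT4) was at 0.813 to 3.95 FPKM in COLO858 and 1.96 to 5.42 FPKM in MMACSF, and its 24 h libraries were above the DMSO libraries in both lines (0.57 ± 0.22 and 0.68 ± 0.31, adjusted p = 0.12 and 0.184).

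Of the 19 sodium- and chloride-coupled SLC6 carriers 3 were measured in each line, namely SLC6A8, SLC6A15, and SLC6A6. SLC6A15 (chr12:85253270-85307408, minus strand of GRCh37) imports branched-chain amino acids, methionine, and proline. In COLO858 it had 28.9 and 45.3 FPKM under DMSO, 12.8 and 18.1 FPKM at 24 h, and 4.78 and 6.68 FPKM at 48 h. It was 6.46-fold lower at 48 h in mean FPKM, a log2 change of -2.48 ± 0.30 (adjusted p = 0.00544), after -1.20 ± 0.30 at 24 h (adjusted p = 0.0394). MMACSF had 10.4 and 14.6 FPKM, 11.8 and 17.1 FPKM, and 11.6 and 17.3 FPKM, with overlapping groups and log2 changes of 0.19 at both times. At 48 h the lines differed by -2.67 ± 0.45 (adjusted p = 0.00545), and the value at 24 h, -1.39 ± 0.45, did not pass (adjusted p = 0.109).

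SLC6A6 (chr3:14444076-14530857, plus strand of GRCh37) carries taurine, a sulfur-containing osmolyte. COLO858 had 9.05 and 8.67 FPKM under DMSO, 4.57 and 4.60 FPKM at 24 h, and 3.45 and 3.58 FPKM at 48 h. The log2 change was -0.82 ± 0.13 at 24 h, which did not pass (adjusted p = 0.0114), and -1.13 ± 0.13 at 48 h, which did (adjusted p = 0.00499). In MMACSF it had 3.74 and 4.10 FPKM, 3.29 and 3.87 FPKM, and 2.18 and 2.29 FPKM. The 48 h libraries of MMACSF lay below its DMSO libraries, with a log2 change of -0.60 ± 0.15 and an adjusted p of 0.0387.

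The high-affinity glutamate transporters, which clear glutamate in the brain, were low. Of 5 members SLC1A3 was measured in both lines and SLC1A1 in MMACSF. SLC1A3 (GLAST) had 2.21 and 2.52 FPKM in DMSO-treated COLO858, 4.88 and 6.26 FPKM at 24 h, and 1.80 and 2.10 FPKM at 48 h. In MMACSF it had 2.19 and 3.68 FPKM, 4.63 and 5.75 FPKM, and 4.59 and 4.89 FPKM. Both lines thus had higher values at 24 h in every library, at 0.96 ± 0.17 (adjusted p = 0.0154) and 0.68 ± 0.23 (adjusted p = 0.0959) on the log2 scale, without passing the threshold. Only MMACSF held its higher libraries at 48 h, and the difference of the lines between 24 and 48 h, -1.04 ± 0.28, had an adjusted p of 0.0758.

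Between 24 and 48 h 0 of 26 members in COLO858 and 0 of 24 in MMACSF passed in limma without a term for the replicate number, where 1.38% (1.17% higher, 0.213% lower) and 0.222% (0.111% in each direction) of all genes did. With a replicate block 8 and 0 members passed, beside 18% and 0.254% of all genes. Without the block 6 and 0 members passed at an adjusted p under 0.05, beside 6.37% and 0.421% of all genes. In COLO858 22 of 26 estimates were below 0, with a median of -0.26. The median over all genes was also below 0, at -0.07. The libraries of 14 members were all lower at 48 h and those of 3 all higher, and 46.7% of all genes did not overlap between these times. The members with the largest such falls in COLO858 were SLC7A5 (-1.62), SLC7A2 (-1.53 ± 0.24, adjusted p = 0.0297), and SLC6A15 (-1.28 ± 0.30, adjusted p = 0.0787).

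Whether the lines differed was tested by an interaction over the 12 libraries for the 27 members measured in either line. At 24 h 3 passed, against 3.71% of all 13595 genes. They were SLC1A4 and SLC1A5, more negative in COLO858 as 1.93% of all genes were, and SLC38A7, more positive as 1.78% were. At 48 h 4 passed, against 7.48% of all genes, with SLC6A15, SLC7A2, and SLC7A1 more negative in COLO858 (3.3% of all genes) and SLC38A7 again more positive (4.19%). The difference of SLC1A5 was -1.27 ± 0.22 at 24 h (adjusted p = 0.00957) and -1.03 ± 0.22 at 48 h (adjusted p = 0.0144). The call at 24 h was lost with 0.1 FPKM added, with rescaled libraries, and without a trend (adjusted p of 0.0109 to 0.0319).

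**Figure D4:**
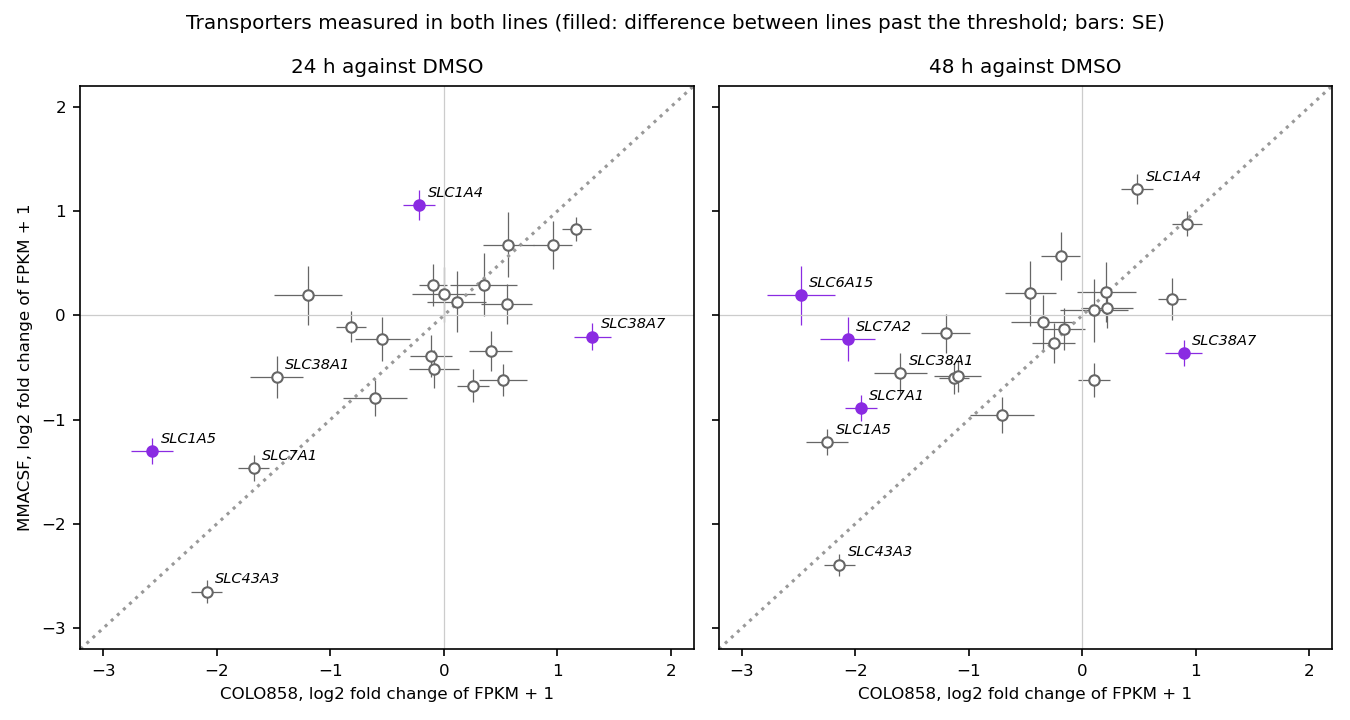
Log2 fold-change of FPKM + 1 against DMSO in COLO858 (horizontal) and MMACSF (vertical) for the 23 transporters measured in both lines, at 24 h (left) and 48 h (right), with bars for the standard error, a dotted line of equal change, and filled points where the difference between lines passed. SLC43A3 sits near the line at the lower left at both times, while SLC6A15 and SLC7A2 at 48 h lie far to the left near 0 on the MMACSF axis.

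Genes around the carriers were read from lists that were chosen with earlier results of these data known, so their shares are descriptions. Of 22 tested genes of the ATF4 and amino acid response in COLO858, 1 was higher and 8 lower at 24 h and 1 was higher and 9 lower at 48 h, with list medians of -1.02 and -1.01 beside the medians of 0.06 and -0.01 over all genes. The lower genes were 36.4% and 40.9% of those tested, where 5.71% and 4.73% of all genes were lower. ATF4, the transcription factor of that response, had 461 and 485 FPKM under DMSO, 227 and 248 FPKM at 24 h, and 222 and 229.7 FPKM at 48 h (log2 change -0.99 and -1.06, adjusted p = 0.00415 and 0.00383). The largest falls were those of PHGDH, the first enzyme of serine synthesis, at 24 h (-2.29 ± 0.16) and of MTHFD2, of mitochondrial folate metabolism, at 48 h (-2.68 ± 0.27), and the 1 rise was that of the stress factor ATF3 (1.54 ± 0.22 and 2.72 ± 0.22). In MMACSF, of 23 tested genes 1 was higher and 5 lower at 24 h and 2 were higher and 4 lower at 48 h, with a list median of -0.32 and -0.51. The lower genes were 21.7% and 17.4% of this list, against 3.6% and 5.41% of all genes. Their largest changes were in VLDLR (1.57 and 1.76) and MTHFD2 (-1.58 and -1.88). ATF4 in MMACSF went the other way at 48 h, from 242 and 220.4 FPKM to 439.4 and 439.1 FPKM (0.92 ± 0.10, adjusted p = 0.00447), and the lines differed by -1.99 ± 0.12 (adjusted p = 4.20e-05).

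Of 32 tested genes of lysosomal amino acid sensing by mTORC1, SESN3, a sestrin that holds mTORC1 down, rose in all 4 comparisons, by 2.14 and 2.06 in COLO858 and 1.45 and 1.74 in MMACSF. SEH1L was the 1 gene that fell, at 48 h in COLO858 (-1.32 ± 0.20, adjusted p = 0.00962). These single genes were 3.12% of the list, near the 4.11% and 4.74% of all genes that were higher in COLO858 and the 2.22% and 3.42% in MMACSF. The list median was 0.27 and 0.12 in COLO858, and in MMACSF it was 0.10 and 0.05. Of 15 cystine and glutathione genes, 1 and 2 were lower in COLO858, with CBS, which makes cystathionine for cysteine synthesis, lowest (-2.55 ± 0.29 and -2.22 ± 0.29). In MMACSF 1 and 2 were lower, with the glutathione synthetase GSS lowest (-0.87 ± 0.10 and -1.22 ± 0.10), and 0 were higher in either line. The share of lower genes was 6.67% at 24 h and 13.3% at 48 h in each line, which at 24 h in COLO858 was near the 5.71% of all genes and in each case rests on 1 or 2 genes. The median of this list was -0.21 and -0.19 in COLO858 and -0.33 and -0.53 in MMACSF. Among glutamine and glutamate enzymes 2 and 1 of 11 were lower in COLO858, with the asparagine synthetase ASNS lowest (-1.99 ± 0.17 and -2.15 ± 0.17), and 0 and 2 of 12 in MMACSF, with GOT1 lowest (-1.02 ± 0.15 at 48 h). These were 18.2% and 9.09% of the list in COLO858 and 0% and 16.7% in MMACSF, again from at most 2 genes. Of all genes 5.71% and 4.73% were lower in COLO858 and 3.6% and 5.41% in MMACSF. Their medians were -0.35 and -0.67 in COLO858, then -0.40 and -0.35 for MMACSF. Of 14 amino acid transporters of other SLC families tested in COLO858, the lysosomal cystine exporter CTNS rose at both times (1.04 ± 0.13 and 1.03 ± 0.13), and 2 fell at 48 h, most of all the mitochondrial ornithine carrier SLC25A15 (-1.39 ± 0.20). The 1 gene higher was 7.14% of them, beside 4.11% and 4.74% of all genes. The 2 lower at 48 h were 14.3%, beside 4.73%. In MMACSF 0 of 13 passed at either time, against 5.83% and 8.83% of all genes. The list medians there were -0.24 and -0.17, beside 0.05 and -0.09 in COLO858.

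The 32 members measured in neither line included the intestinal, renal, and neuronal carriers of these families. Of them 7 were listed at 0 in all 12 libraries and 16 stayed under 0.1 FPKM in every library. The highest value of any of them in a single library was 1.20 FPKM, for SLC6A17.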

How the data were processed

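RNA of COLO858 and MMACSF cells was sequenced by the authors from stranded mRNA libraries with spike-in, mapped to hg19 with TopHat, and summarised with Cuffdiff, as the paper and the submitters' processing notes state. The annotation, program versions, strand setting, and scaling are not given in the sources used here. The values the authors deposited, 1 table per line, are called normalized counts in the labels and were taken as FPKM, the unit of the paper's methods. Read depth is unknown and whole reads were not recovered, so the precision that depth sets is unknown, and summed FPKM is not a depth. Every one of the 12 columns entered the fits, and there were 0 columns of other samples.

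Each line was fitted with limma 3.58.1 in R 4.3.3 on log2(FPKM + 1) with 3 groups and empirical Bayes with a mean-variance trend, over genes whose mean reached 1 FPKM in a group. Differences between lines were interactions in a fit of 6 groups. Tests are two-sided, adjusted by Benjamini-Hochberg over all genes tested, with a threshold of 0.01. Fold-changes and SE are on the log2(FPKM + 1) scale, which understates changes of low genes. With 2 against 2 libraries an exact permutation test cannot go below 0.333, so none was made for single values.

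Named with values were members past the threshold in any of the 9 comparisons, a list of carriers set by role, and the highest member of each role group, and for the other gene lists the largest rise and fall. Members and lists were chosen with earlier results of these data known, and ATF4 was named after its values were seen. Gene positions are from GENCODE v44 lifted to GRCh37 and promoter sequences from RefSeq on GRCh38.p14. The fits were tested on simulated data. Alternatives were another added constant or minimum, rescaled libraries, no trend, a spread from the compared groups, a looser threshold, a replicate block, and leaving out each library.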

Additional observations from a re-analysis of the deposited data

Results flagged for a closer look

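The values below were picked out because the change of a transporter differed between COLO858 and MMACSF by a test of the difference itself, a limma interaction over the 12 libraries (adjusted p under 0.01 over 13595 genes), each given as the log2 fold-change in COLO858 minus that in MMACSF. At 24 h against DMSO the difference was -1.27 ± 0.19 (SE) for SLC1A4, the serine and alanine exchanger, which rose in MMACSF and stood near 1 FPKM in COLO858. It was also -1.27 ± 0.22 for SLC1A5, which fell in both lines and further in COLO858. For SLC38A7, the lysosomal glutamine carrier, it was 1.51 ± 0.18 at 24 h and 1.25 ± 0.18 at 48 h, with values above DMSO in every drug library of COLO858 and below DMSO in every drug library of MMACSF.

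At 48 h against DMSO the difference was -2.67 ± 0.45 for SLC6A15, -1.84 ± 0.33 for SLC7A2, and -1.06 ± 0.15 for SLC7A1. SLC6A15 and SLC7A2 fell in COLO858 and had libraries that overlapped DMSO in MMACSF, and SLC7A1 fell in both. From 24 to 48 h the difference was -1.66 ± 0.27 for SLC7A5, the leucine carrier, whose estimate was -1.62 in COLO858 and 0.04 in MMACSF, neither past the threshold in its own line. The medium, the line, and any separate scaling of the 2 tables cannot be told apart in these differences. No group had the 4 or more libraries needed to look for an outlying library.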

How the results depend on the processing

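Counts below are members past the threshold, in the order COLO858 at 24 h, 48 h, and 48 h against 24 h, MMACSF at 24 h and 48 h, and the difference between lines at 24 h, 48 h, and 48 h against 24 h (reported as 5, 8, 0, 5, 5, 3, 4, and 1). At an adjusted p under 0.05 they were 11, 15, 6, 8, 9, 8, 10, and 6, when 25.8%, 26%, 6.37%, 20.3%, 24.1%, 9.03%, 15.6%, and 6.36% of all genes passed. With the spread taken from only the compared groups they were 3, 3, 0, 1, 1, 0, 1, and 0. Of all genes 3.76%, 2.99%, 0.102%, 0.468%, 2.89%, 1.53%, 4.9%, and 1.49% then passed. Rescaling gave 8 in COLO858 at 24 h (11.9% of all genes) and 0 for the last difference (3.72%). Testing genes of any level, or fitting without a trend, gave 3 in MMACSF at 24 h (2.95% and 5.45% of all genes). A minimum of 10 FPKM gave 2 for the last difference (3.54%). Leaving out 1 library in turn left 1 library in a group. Calls then became fewer, among the members as over all genes, with most lost against DMSO within each line. MMACSF at 48 h against 24 h stayed at 0 throughout, beside 0.222% of all genes in the main fit.

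Of the 31 values past the threshold, 0 reversed. With 0.1 FPKM added 28 stayed past it and 3 did not, with rescaling 25 and 6, without a trend 26 and 5, and with 1 library left out 19 of 156 stayed. SLC6A8 was lost in 3 comparisons by rescaling and by the fit without a trend, in 1 of them also with 0.1 FPKM added (adjusted p of 0.01 to 0.018). SLC1A5 lost its difference between lines at 24 h under these 3 settings. Rescaling also lost SLC38A7 in COLO858 at 24 h (adjusted p = 0.01003) and the difference of SLC7A5 (0.0312), the fit without a trend lost SLC1A4 in MMACSF at 24 h (0.0126), and 0.1 FPKM lost the difference of SLC7A2 at 48 h (0.0107). The cause was not tested. Rescaling moved the median of all genes by at most 0.067 on the log2 scale.

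Replicate numbers are shared between groups, but no label says what they pair. As a check, the deviation of a library from its group was correlated over all genes with that of the library bearing its number in another group, giving r of 0.196 to 0.211 (COLO858) and 0.0628 to 0.113 (MMACSF). Without small RNA genes r was 0.753 to 0.779 and 0.59 to 0.673, and over the members 0.741 to 0.927. Libraries of 1 number thus deviated together in both lines, with only 2 numbers to compare. With the replicate block the 0 members of COLO858 at 48 h against 24 h became 8, and in the order above the counts were 16, 15, 8, 10, 10, 11, 13, and 8, when 45%, 43.7%, 18%, 26.1%, 30.1%, 17.6%, 25.3%, and 13% of all genes passed, and all 31 values past the threshold without the block passed with it. Depth, which is unknown here, and 2 libraries per group limit what can be seen.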
